A study of Mus musculus with 8 samples.

Results

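The response of CD90-positive (CD90pos) mouse mammary tumour cells to interferon gamma (IFNg) was measured by RNA sequencing in 4 of the 8 libraries of the study. The 4 libraries were chosen by their labels for sort and treatment: CD90pos IFNg A, CD90pos IFNg B, CD90pos control A and CD90pos control B. The IFNg library of a letter was compared with the control library of the same letter, over the 12962 of 12964 listed genes that reached 10 normalized reads in at least 2 of the 8 libraries. IFNg-treated cells had received 10 IU of IFNg per ml for 24 h, and control cells carry only the label of a control. Cells of all groups belong to the line PyMT, labelled as wild type and as derived from a primary mammary tumour. The name PyMT stands for the polyoma virus middle T oncogene, which drives mammary tumours in mice. Cells were grown in low-serum medium with insulin and epidermal growth factor, and were sorted by flow cytometry for CD90, the surface protein encoded by Thy1. The other 4 libraries are of CD90-negative (CD90neg) cells of the same line with and without IFNg, and are used here to set the CD90pos response beside theirs. The labels do not say whether cells met IFNg before or after the sort, what the letters stand for, or whether libraries came from separate cultures or mice. The p-values therefore speak only of the spread among these libraries, part of which may be technical.

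IFNg is a cytokine that activated T cells and NK cells release. It binds a receptor built from Ifngr1 and Ifngr2 chains, whose kinases Jak1 and Jak2 phosphorylate transcription factors of the STAT family. Paired STAT factors bind GAS elements in DNA and switch on a first set of genes, among them transcription factors of the IRF family. Irf1 and complexes that hold Stat2 and Irf9 then act through a second DNA element, the ISRE. The response is known for antigen presentation, T cell attracting chemokines and GTPases that attack intracellular microbes, and it is curbed by inhibitors such as Socs1. In mammary tumours such a response helps set how visible tumour cells are to T cells.

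Read totals were 35952019 and 35144542 in CD90pos IFNg A and B, against 31243646 and 32246195 in CD90pos control A and B. The 8 libraries lay between 31243646 and 40899909 reads. Mitochondrially encoded genes took 1.23% and 0.952% of normalized reads in CD90pos IFNg A and B, against 2.31% and 0.670% in CD90pos control A and B. Values are normalized reads, that is, the authors' read counts divided by a factor per library, and all folds are differences of log2(normalized reads + 1). A gene was called where its adjusted p was under 0.05 in a limma fit that took the letter as a block.

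The libraries matched their sort label and a mammary epithelial origin. Thy1 was at 2195 and 3936 normalized reads in CD90pos IFNg A and B, against 283 and 1495 in CD90pos control A and B, while the CD90neg libraries held between 16.6 and 65.5. Its log2 fold change with IFNg was 2.17 (adjusted p = 0.0335), and it was not called without the letter block (adjusted p = 0.163). All 10 luminal and all 7 basal mammary markers were listed. The summed level of the luminal markers was 481481 and 820550 in CD90pos IFNg A and B, against 216579 and 631113 in CD90pos control A and B. The basal sum was 48162 and 264164 in the IFNg libraries A and B, against 23117 and 414057 in the control libraries. The letters thus differ in their basal markers: the smooth muscle actin gene Acta2 was at 1639 and 129112 in IFNg A and B and 3658 and 235195 in control A and B. Of markers of other cell types the table listed 2 of 8 for T cells, 6 of 11 for myeloid cells, 7 of 9 for fibroblasts and 0 for B cells, NK cells, endothelium and adipocytes. Ptprc and Cd3e were not analysed here. The myeloid sum was 1705 and 938 in IFNg A and B, against 3754 and 1580 in control A and B. The fibroblast sum was 471 and 5805 in IFNg A and B, against 1271 and 14091 in control A and B. In such bulk samples fewer cells of a type and less RNA per cell cannot be told apart, and the part of these shifts in the results below was not tested.

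IFNg changed a large share of the measured genes in CD90pos cells, with the strongest changes upward. Of 12962 genes, 1815 (14.0%) were called higher and 1763 (13.6%) lower, or 27.6% in either direction. Of these, 317 genes rose by 2 or more on the log2 scale and 83 fell by as much, and 77 rose by 5 or more while 0 fell by as much. Every called gene moved the same way in both letters. A call in this fit favours genes whose letters agree, so this agreement is not separate support. Without the letter block 273 genes were called in each direction (2.11% each), or 546 in all (4.21%), and all of these were among the 3578. The total was 460 genes without CD90pos IFNg A and 844 without CD90pos IFNg B. It lay between 2580 and 4035 when any of the other 6 libraries was left out, and 404 genes (284 higher, 120 lower) were called in each of the 8 fits that left out a library. The CD90pos IFNg values lay above both control values for 3143 genes (24.2%) and below both for 3088 (23.8%). In 32 of the genes called higher both control libraries held 3 reads or fewer, so the size of their fold rests on the pseudocount.

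**Figure D1:**
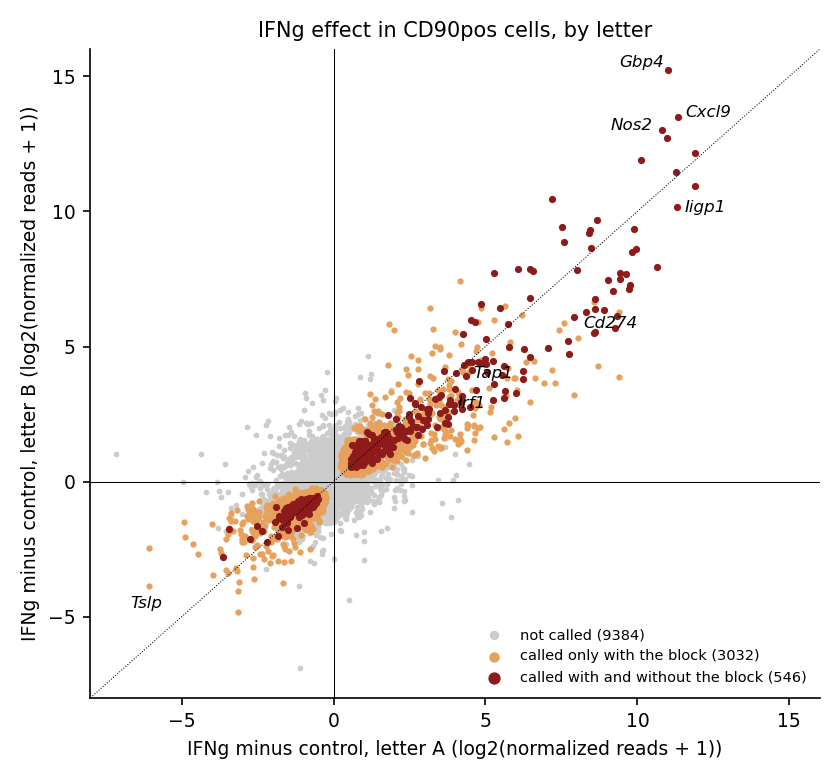
Each point is a gene; the horizontal axis gives IFNg minus control in the CD90pos libraries with the letter A and the vertical axis the same with the letter B, both as differences of log2(normalized reads + 1). Grey points were not called, orange points (3032) were called only with the letter block and dark red points (546) also without it; the dotted line marks equal changes. Called genes lie in the quadrants where both letters moved the same way, which the call itself favours, and Gbp4, Cxcl9 and Nos2 lie at the upper end.

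The receptor for IFNg was lower in treated cells, and the kinase gene Jak2 was higher by a smaller margin. Ifngr1, the chain that binds the cytokine, was at 1083 and 1602 normalized reads in CD90pos IFNg A and B, against 1637 and 2673 in CD90pos control A and B. Ifngr2, the signalling chain, was at 986 and 1609 in IFNg libraries and 1805 and 2883 in control libraries. Within each letter both chains were lower with IFNg, and in both genes the A libraries held fewer reads than the B libraries of the same treatment. The log2 fold change was -0.67 (SE 0.14, adjusted p = 0.0154) for Ifngr1 and -0.86 (SE 0.11, adjusted p = 0.00377) for Ifngr2. Jak2 was called higher by 0.48 (adjusted p = 0.0463), with 2241 and 1832 in IFNg libraries and 1761 and 1205 in control libraries, but 7 of the 8 libraries could each end that call (adjusted p from 0.0551 to 0.230). Jak1 was not called (log2 fold change 0.26, adjusted p = 0.132). Neither receptor chain was called without the letter block (adjusted p = 0.289 and 0.291), without CD90pos IFNg A (adjusted p = 0.130 and 0.0549) or, for Ifngr1, without CD90pos IFNg B (adjusted p = 0.101). Ifng itself was not analysed here.

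Among the STAT factors Stat2 and Stat3 rose. Stat2, which acts in a complex with Irf9, was at 5942 and 7141 normalized reads in IFNg A and B and 374 and 658 in control A and B. Stat3, which cytokines of the interleukin-6 family use, was at 11018 and 13258 in IFNg and 2164 and 3914 in control libraries. In both genes the lower IFNg library lay well above the higher control library. The log2 fold changes were 3.71 (SE 0.34, adjusted p = 0.00169) for Stat2 and 2.05 (SE 0.21, adjusted p = 0.00216) for Stat3. Stat3 was not called without the block (adjusted p = 0.0598). Stat5b was called higher by a smaller 0.64, a call that ended without CD90pos IFNg A or B (adjusted p = 0.137 and 0.0908) and without the block (adjusted p = 0.401). Of the 11 receptor and JAK-STAT genes 7 were called higher and 2 lower, against 14.0% and 13.6% of all genes. Their median log2 fold change was 0.49, against 0.01 over all genes tested. Without the block 2 were called, both higher, and 3 and 4 were called in either direction without CD90pos IFNg A and B.

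Other transcription factors of the response rose as well. Batf2, a basic leucine zipper factor of the interferon response, was at 1594 and 1466 normalized reads in IFNg A and B, against 7.66 and 1.12 in control A and B. Irf8, known from myeloid cells, was at 2213 and 1289 in IFNg and 31.7 and 4.49 in control libraries. Ciita, the master transactivator of MHC class II genes, was at 819 and 1214 in IFNg and 7.66 and 4.49 in control libraries. These 3 genes were close to silent in both control libraries and well read in both IFNg libraries. Nlrc5, the corresponding transactivator of MHC class I genes, was at 15739 and 13880.0 in IFNg and 546 and 145 in control libraries. Irf1 was at 23339.7 and 26816 in IFNg and 599.8 and 2172 in control libraries, so control B held several times the reads of control A. The log2 fold changes were 8.48 for Batf2, 7.18 for Ciita, 6.98 for Irf8, 5.71 for Nlrc5 and 4.45 for Irf1, with adjusted p between 0.000503 and 0.00147. Irf7, the factor that amplifies type I interferon, differed between letters: it was at 1473 and 4917 in IFNg A and B and 40.5 and 819 in control A and B (log2 fold change 3.87, adjusted p = 0.00602). Irf9 and Irf2 were called higher by 1.83 and 1.10. Of 12 IRF and related factors 9 were called higher and 0 lower (median 2.85), 6 were called higher without the block, and 5 were called without CD90pos IFNg A. Irf7 and Irf9 were not called without the block (adjusted p = 0.270 and 0.198). Irf2, Irf7 and Irf9 were not called without CD90pos IFNg A (adjusted p from 0.05 to 0.228), and Irf9 neither without CD90pos IFNg B nor without CD90pos control A (adjusted p = 0.0557 and 0.177). Irf7 and Irf9 share exon bases with neighbouring genes in the annotation, Irf7 on the opposite strand and Irf9 on the same strand as Rnf31.

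Socs1, Socs3 and Usp18 rose among the inhibitors of the pathway. Socs1, which blocks the JAK kinases, was at 798 and 875 normalized reads in IFNg A and B and 26.3 and 40.4 in control A and B. Socs3, which curbs Stat3 signalling, was at 5889 and 7282 in IFNg and 835 and 552 in control libraries. Both sets of libraries lay well apart in both genes, with log2 fold changes of 4.64 (SE 0.23, adjusted p = 0.000256) and 3.27 (SE 0.28, adjusted p = 0.00131). Usp18, which removes Isg15 from proteins and dampens the type I interferon receptor, was at 1349.9 and 2146 in IFNg A and B and 116 and 914 in control A and B (log2 fold change 2.38, adjusted p = 0.0243). Ptpn2, a phosphatase that acts on Jak1, was lower, at 1279.8 and 1522 in IFNg and 1741 and 2103 in control libraries (log2 fold change -0.46, adjusted p = 0.0287). Of 11 inhibitors 5 were called higher and 1 lower (median 0.38), against 14.0% and 13.6% of all genes, 2 were called higher without the block, and 2 and 3 were called in either direction without CD90pos IFNg A and B. Usp18 and Ptpn2 were not among those 2 (adjusted p = 0.354 and 0.213 without the block). Usp18 was not called without CD90pos IFNg A or control A (adjusted p = 0.135 and 0.115). Ptpn2 was not called without any one of 5 libraries, CD90pos IFNg A, IFNg B, control B and both CD90neg IFNg libraries (adjusted p from 0.0537 to 0.195).

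**Figure D2:**
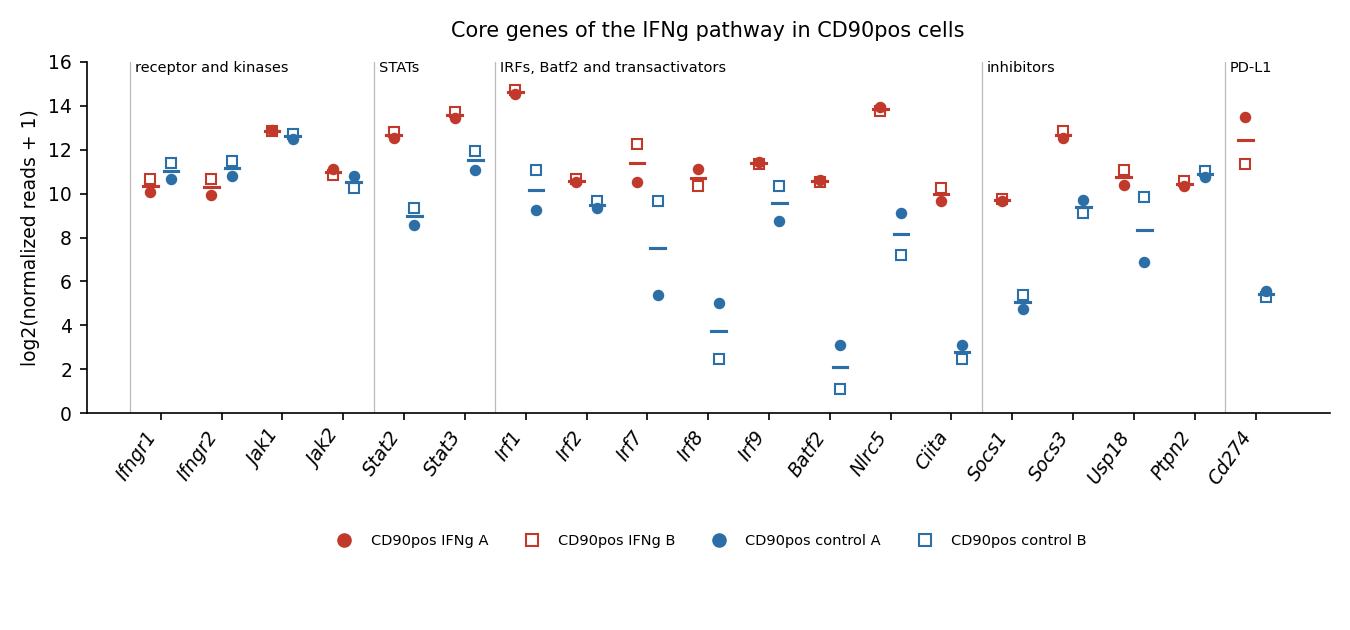
Levels of core genes of the IFNg pathway in the 4 CD90pos libraries, as log2(normalized reads + 1); red symbols are IFNg and blue symbols control libraries, filled circles are the letter A, open squares the letter B, and bars are the mean of 2 libraries. Stat2, Stat3, the IRF factors, Batf2, the transactivators, Socs1 and Cd274 stand higher in IFNg libraries, and both receptor chains stand lower within each letter.

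Promoters of genes that rose were searched for the 2 DNA elements of the pathway, because they show which of the named genes carry the letters that STAT and IRF factors are known to bind. The searched motifs were TTCNNNGAA for GAS and, for ISRE, GAAA followed by any 2 bases and a further GAAA, on both strands, in the 250 bases before each start in RefSeq's annotation of GRCm38.p6. RefSeq promoters could be matched for 9913 of the 12962 genes, which gave 12731 promoters. GAS letters were in 5.84% and ISRE letters in 2.62% of all these promoters. Among the 158 promoters of 133 genes called higher by 3 or more, 14.6% held GAS and 27.8% ISRE letters, and 36.7% held either, against 8.17% of all promoters. Among the 1841 promoters of all genes called higher, 6.74% held GAS and 5.43% ISRE letters, and 11.3% held either. For genes called higher with and without the block these shares were 10.0%, 13.9% and 19.7%. Among the promoters of all genes called lower, 4.99% held GAS and 2.26% ISRE letters, and 7.06% held either. For genes called lower with and without the block these shares were 5.99%, 4.49% and 10.5%. A match is a description of the letters only and no site of binding was measured. Below are the 100 bases before the start of 6 genes described in this text, 5′ to 3′ on the strand of the gene and in lower case, with GAS and ISRE letters in capitals (the 2 kinds can lie side by side, and 2 ISRE matches can overlap).
Irf1, chr11:53769914-53770013, plus strand: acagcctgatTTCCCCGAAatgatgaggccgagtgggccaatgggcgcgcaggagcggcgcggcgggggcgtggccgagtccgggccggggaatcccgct
Socs1, chr16:10785537-10785636, minus strand: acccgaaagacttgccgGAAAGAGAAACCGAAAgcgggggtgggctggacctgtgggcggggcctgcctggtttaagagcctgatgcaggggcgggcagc
Gbp2, chr3:142620563-142620662, plus strand: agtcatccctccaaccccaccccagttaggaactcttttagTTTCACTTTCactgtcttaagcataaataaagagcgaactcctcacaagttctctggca
Igtp, chr11:58199456-58199555, plus strand: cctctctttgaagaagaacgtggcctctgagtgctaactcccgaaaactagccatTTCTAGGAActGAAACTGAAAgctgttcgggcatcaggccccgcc
Tgtp2, chr11:49064213-49064312, minus strand: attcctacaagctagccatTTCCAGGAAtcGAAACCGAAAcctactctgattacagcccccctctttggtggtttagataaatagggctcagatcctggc
Irgm1, chr11:48871421-48871520, minus strand: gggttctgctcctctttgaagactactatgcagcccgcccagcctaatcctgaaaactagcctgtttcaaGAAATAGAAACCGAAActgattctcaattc
At the start shown, Irf1 held 1 GAS match and no ISRE match, starting 90 bases before that start. The other RefSeq promoter of Irf1 held neither motif. Socs1 and Irgm1 held 2 overlapping ISRE matches each. In Igtp and Tgtp2 the GAS and ISRE matches lay 2 bases apart, at 45 and 34 bases before the start of Igtp and at 81 and 70 bases before that of Tgtp2. Gbp2 held 1 ISRE match on the opposite strand. These 6 genes all hold a match and do not stand for all genes that rose. Cxcl9, Cd274 and H2-Aa, described below, rose and held neither motif in the 250 bases searched. Ctla2a and Cd59a fell and held GAS and ISRE letters, respectively. The short stretch of 225 bases between the RefSeq starts of Tap1 and Psmb9, which are transcribed away from each other, held neither motif. In the gene annotation Psmb9 spans 34181988 to 34187764 and so covers this stretch. There Tap1 and Psmb9 share exon bases on opposite strands.
Tap1 to Psmb9, chr17:34187331-34187555, plus strand: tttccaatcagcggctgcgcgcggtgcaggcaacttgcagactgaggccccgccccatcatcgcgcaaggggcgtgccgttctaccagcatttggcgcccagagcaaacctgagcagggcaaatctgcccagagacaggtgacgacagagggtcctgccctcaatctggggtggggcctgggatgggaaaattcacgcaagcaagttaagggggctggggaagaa

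The guanylate-binding proteins (GBP) and immunity-related GTPases (IRG), which assemble on membranes of intracellular microbes, were the group that rose most. All 21 measured members were called higher, 18 of them also without the block, with a median log2 fold change of 7.62 (8.60 in letter A and 6.41 in letter B). Together they took 1.71% and 1.38% of normalized reads in CD90pos IFNg A and B, against 0.00798% and 0.0171% in control A and B. Gbp4 (GRCm38 chromosome 5, 105115767 to 105139586) was at 67146 and 38356 normalized reads in IFNg A and B, against 31.7 and 0 in control A and B. Iigp1, an IRG GTPase, was at 101854 and 67929 in IFNg and 39.4 and 58.4 in control libraries. Both genes were highly read in each IFNg library and hardly read in the control libraries. On the log2 scale Gbp4 rose by 13.11 (SE 1.25, adjusted p = 0.0019) and Iigp1 by 10.73 (SE 0.83, adjusted p = 0.000911). Tgtp2, whose promoter is shown above, was at 16186 and 9662 in IFNg and 3.28 and 1.12 in control libraries, which are 3 reads and 1 read. Its ratio of IFNg to control was 5856, with a 95% counting interval from 2287 to 21494. Gbp10 was at 7872 and 2787 in IFNg and 2.19 and 0 in control libraries, a ratio of 4848 with a counting interval from 1342 to 40037. These wide intervals come from the few control reads and cover counting error only. Gbp6 was at 6032 and 3865 in IFNg and 4.38 and 0 in control libraries. Irgm1, a regulator of the other IRG proteins, was also read without IFNg, with 50749 and 38996 in IFNg and 1555 and 1931 in control libraries (log2 fold change 4.68, SE 0.20, adjusted p = 0.000179). Gbp9 was at 3524 and 5049 in IFNg and 77.7 and 58.4 in control libraries (log2 fold change 5.95, adjusted p = 0.000179). GBP and IRG genes are close copies of each other, and Gbp4, Gbp8 and Gbp9 share exon bases, so reads may be split between members in a way the values cannot show. With the 3 members whose control libraries held 3 reads or fewer set to their lower bound, the median stayed 7.62. A further 3 GTPase genes outside the list also rose by over 9 on the log2 scale: Gm12250, known as Irgb10, and Gm4841 and F830016B08Rik, listed by RefSeq with the synonyms Ifgga3 and Ifgga4. Gm12250 was at 8279 and 6465 in IFNg and 7.66 and 8.98 in control libraries, and Gm4841 was at 21580.0 and 6716 in IFNg and 9.85 and 0 in control libraries.

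Antigen presentation through MHC class I rose in its peptide transporter, its heavy chains and its light chain. Tap1 (GRCm38 chromosome 17, 34187553 to 34197225), a subunit of the peptide transporter, had the smallest p of all genes, with 17644 and 16492 normalized reads in IFNg A and B and 893 and 825 in control A and B. Tap2, the other subunit, was at 10596 and 13562 in IFNg and 512 and 909 in control libraries. The 2 letters gave nearly the same change in both subunits, with log2 fold changes of 4.31 (SE 0.13, adjusted p = 0.000107) and 4.13 (SE 0.14, adjusted p = 0.000134). The non-classical heavy chain genes H2-Q6, H2-Q7 and H2-Q4 rose by 5.02, 4.63 and 4.34; H2-Q4, for example, was at 17634 and 13136 in IFNg and 363 and 1549.8 in control libraries. These heavy chain genes are close copies, so their reads may be shared. B2m, the light chain of every class I molecule, was at 113266 and 67106 in IFNg A and B and 11305 and 22653 in control A and B (log2 fold change 2.45, SE 0.46, adjusted p = 0.0113). H2-K1, a classical heavy chain, was at 80053 and 67066 in IFNg and 6115 and 18778 in control libraries (log2 fold change 2.77, adjusted p = 0.00888). In both genes control B held more than control A, and both were well read in every control library. Of 17 class I genes 14 were called higher, 9 of them also without the block, and 0 lower, with a median of 2.71, and 7 were called without CD90pos IFNg A. The general chaperones Calr, Canx and Pdia3 were the 3 not called. B2m and H2-K1 were not called without the block (adjusted p = 0.052 and 0.0641), and B2m, H2-K1, H2-Q4 and H2-Q7 were not called without CD90pos IFNg A (adjusted p from 0.0507 to 0.0808).

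In the proteasome, which makes the peptides, the inducible subunits rose. Psmb9, Psmb8 and Psmb10, the catalytic subunits of the immunoproteasome, rose by 5.54, 4.71 and 3.62, and Psme1, a subunit of the PA28 activator, by 2.26. Psmb9 was at 6572 and 5590.4 normalized reads in IFNg A and B and 73.3 and 229 in control A and B. Psmb8 was at 18038 and 18564 in IFNg and 276 and 1759 in control libraries. All 4 IFNg values lay far above the control values. Psmb6, a constitutive catalytic subunit, was at 6294 and 6259 in IFNg and 8697 and 9284 in control libraries, and was called lower (log2 fold change -0.52, adjusted p = 0.0127). Of 11 proteasome genes 5 were called higher and 1 lower (median 0.21), against 14.0% and 13.6% of all genes. Without the block 3 were called higher. Psmb6 was not called without the block (adjusted p = 0.0633) nor without CD90pos IFNg A or B (adjusted p = 0.0976 and 0.142), and Psmb8 not without the block (adjusted p = 0.0538).

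The MHC class II chains, the invariant chain and the H2-DM genes that load their peptides rose. Cd74, the invariant chain, was at 1655 and 2272 normalized reads in IFNg A and B, against 5.47 and 8.98 in control A and B. H2-Aa, an alpha chain, was at 526 and 573 in IFNg and 0 and 2.24 in control libraries, with 2 control reads in all. H2-Eb1, a beta chain, was at 669 and 515 in IFNg and 19.7 and 12.3 in control libraries. All 3 rose in both letters, as did Ciita, their transactivator. The log2 fold changes were 7.92 (SE 0.74, adjusted p = 0.00176) for Cd74 and 5.14 (SE 0.46, adjusted p = 0.00148) for H2-Eb1, and the ratio of H2-Aa was 496 with a counting interval from 137 to 4098. Of 9 class II genes 6 were called higher, 4 of them also without the block, and 0 lower (median 3.71). The 3 that were not called are the processing enzymes Ctss, Lgmn and Ifi30 (log2 fold changes 1.93, -0.07 and 0.06, adjusted p = 0.212, 0.808 and 0.870). Lgmn was at 1561 and 1749 in IFNg and 1485 and 2021 in control libraries, and Ifi30 at 1757 and 2103 in IFNg and 1669 and 2049 in control libraries. H2-Ab1 was at 1461 and 715 in IFNg and 78.8 and 20.2 in control libraries, and its call ended when any of the 4 CD90pos libraries was left out (adjusted p from 0.0663 to 0.114) or the block was dropped (adjusted p = 0.145). Class II genes are also expressed by macrophages, whose marker sum was lower in IFNg than in control libraries of the same letter, as given above. Of the 6 myeloid markers listed Lyz2, S100a8 and Cd14 were called lower (log2 fold changes -1.41, -2.35 and -0.79), and Csf1r, Cd68 and Tyrobp were not called (-1.42, 0.23 and 0.02). None of the 6 was called without the block (adjusted p from 0.054 to 0.999). Cd68 was at 160.0 and 140.0 in IFNg A and B and 263 and 61.7 in control A and B, and Lyz2 was at 621 and 11.2 in IFNg A and B and 1595 and 32.5 in control A and B. The part of such cells in the class II values was not tested.

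T cell attracting chemokines rose and were nearly silent in control libraries. Cxcl9 was at 127123 and 75388 normalized reads in IFNg A and B, against 48.2 and 5.61 in control A and B. Cxcl10 was at 41496 and 40202 in IFNg and 59.1 and 189.7 in control libraries. Cxcl11, the third ligand of the receptor Cxcr3, was at 184 and 229.9 in IFNg and 1.09 and 0 in control libraries, a single control read. The transcripts of these 3 ligand genes therefore rose together in both letters. Cxcl11 is annotated as a polymorphic pseudogene, and whether these cells make its protein was not tested. The log2 fold change was 12.41 (SE 1.0, adjusted p = 0.00105) for Cxcl9 and 8.58 (SE 0.46, adjusted p = 0.000357) for Cxcl10, and the ratio of Cxcl11 was 372 with a counting interval from 66.5 to 14746. Il1a, the gene of the inflammatory cytokine IL-1α, was at 1805 and 2913 in IFNg and 7.66 and 77.4 in control libraries (log2 fold change 6.46, adjusted p = 0.00124). The epithelial cytokine Tslp, known for type 2 immunity, went the other way, with 282 and 117 in IFNg A and B and 19122 and 1724 in control A and B. Its log2 fold change was -4.97 (SE 0.49, adjusted p = 0.00208), and the control letters were so far apart that it was not called without the block (adjusted p = 0.133). Csf2, the growth factor GM-CSF, was at 121 and 81.7 in IFNg and 384 and 1113 in control libraries, and the stromal chemokine Cxcl12 was at 360.4 and 1309.7 in IFNg and 2178 and 4652 in control libraries. Both were called lower (log2 fold changes -2.70 and -2.21), calls that ended without the block (adjusted p = 0.101 and 0.129). They also ended without CD90pos IFNg A or control B (adjusted p from 0.0694 to 0.139), for Csf2 without IFNg B (adjusted p = 0.174) and for Cxcl12 without control A (adjusted p = 0.0541). Of 25 chemokine and cytokine genes 10 were called higher and 3 lower (median 0.69), against 14.0% and 13.6% of all genes. Without the block 6 were called higher, and leaving out CD90pos IFNg A lowered the count.

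Among ligands that T cells and NK cells read on tumour cells, Cd274, the gene of the checkpoint ligand PD-L1, rose most. It was at 11388 and 2642 normalized reads in IFNg A and B, against 46.0 and 38.2 in control A and B. The control libraries were alike, and IFNg A lay well above IFNg B. Its log2 fold change was 7.0 (SE 0.43, adjusted p = 0.000498). Tnfrsf14, a ligand of the inhibitory receptor Btla, was at 255 and 234 in IFNg and 1.09 and 18 in control libraries (log2 fold change 5.28, adjusted p = 0.00776). Icam1, the adhesion ligand of T cells, was at 1094 and 8459 in IFNg A and B and 60.2 and 2514 in control A and B, so that control B lay above IFNg A and only the comparison within a letter gave a change (2.96, adjusted p = 0.0123). Cd40, a costimulatory receptor, was lower, at 39.5 and 53.1 in IFNg and 125 and 425 in control libraries (log2 fold change -2.31, adjusted p = 0.0151). Of 16 such genes 6 were called higher and 2 lower (median 0.09), against 14.0% and 13.6% of all genes. Cd274 alone was called without the block, and leaving out CD90pos IFNg A or B lowered the count. Without CD90pos IFNg A neither Tnfrsf14 nor Icam1 was called (adjusted p = 0.0674 and 0.0911), and Cd40 was not called without CD90pos IFNg B or control B (adjusted p = 0.122 and 0.0685).

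Of 15 metabolic effectors of the response 5 were called higher and 0 lower (median 0.31), against 14.0% and 13.6% of all genes. Without the block 3 were called higher. Nos2, the inducible nitric oxide synthase, was at 29166 and 17651 normalized reads in IFNg A and B, against 15.3 and 1.12 in control A and B. Acod1, the enzyme that makes itaconate, was at 171 and 324 in IFNg and 0 and 5.61 in control libraries. Wars, the tryptophan tRNA synthetase, was at 33584 and 14274 in IFNg and 2657 and 3202 in control libraries. Control cells therefore carried Wars reads but almost none of Nos2 or Acod1. The log2 fold changes were 11.91 (SE 0.65, adjusted p = 0.00037), 6.52 (SE 0.49, adjusted p = 0.000835) and 2.91 (SE 0.32, adjusted p = 0.00287). Of the enzymes that break down tryptophan, Ido1 was at 403 and 979.8 in IFNg and 1.09 and 1.12 in control libraries, 1 read in each, which gives a ratio of 619 with a counting interval from 171 to 5120. Ido2 was at 79.0 and 20.4 in IFNg libraries and at 0 reads in both control libraries, which makes it at least 15-fold higher against a floor of 3 reads per library. Acod1 and Ido2 were not called without the block (adjusted p = 0.0519 and 0.0806), nor Ido2 without CD90pos IFNg A (adjusted p = 0.0859).

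Antiviral genes, most of them better known from type I interferon, rose almost without exception but unevenly between letters. Of 33 measured, 32 were called higher and 0 lower (median 3.10), of which 6 were called without the block and 19 without CD90pos IFNg A. Zbp1, a sensor of Z-form nucleic acids, was at 13963 and 11712 normalized reads in IFNg A and B and 21.9 and 226 in control A and B (log2 fold change 7.47, SE 0.81, adjusted p = 0.00273). Oas3, a synthetase that activates RNase L, was at 522 and 4298 in IFNg A and B and 4.38 and 194 in control A and B. Ifit3, which binds antiviral signalling proteins, was at 639.9 and 2214 in IFNg and 23 and 35.9 in control libraries, and Oasl2 was at 9524 and 11649 in IFNg and 95.2 and 818 in control libraries. Oas3 had several times more reads in letter B than in letter A with and without IFNg, whereas Zbp1 had similar IFNg levels in both. Their log2 fold changes were 5.53, 5.32 and 5.23 (adjusted p = 0.00318, 0.00139 and 0.00559), and none of these 3 was called without the block (adjusted p from 0.0633 to 0.270). Mov10, an RNA helicase outside this list, had one of the smallest p, with 3281 and 4676 in IFNg and 588 and 829 in control libraries (log2 fold change 2.49, SE 0.11, adjusted p = 0.000179).

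Genes of ubiquitin-like conjugation, which tag proteins with Isg15, FAT10 or ubiquitin chains, were called higher in 10 of 11 cases, 3 of them also without the block (median 3.10). Ubd, the gene of FAT10, was at 672 and 5418 normalized reads in IFNg A and B and 0 and 69.6 in control A and B (log2 fold change 7.83, adjusted p = 0.00158). Uba7 and Ube2l6, the E1 and E2 enzymes for Isg15, rose by 4.88 and 4.75, and Isg15 itself, at 2042 and 4574 in IFNg and 97.4 and 1030.2 in control libraries, by 3.26 (adjusted p = 0.00658). Ubd, Uba7 and Isg15 were not called without the block (adjusted p = 0.152, 0.0744 and 0.228), and Isg15 not without CD90pos IFNg A (adjusted p = 0.0534). Of 8 genes of the PARP family and its partner Dtx3l, 6 were called higher and 0 lower (median 2.84), 2 of them also without the block. Parp14 was at 15874 and 22950.1 in IFNg and 252 and 1625 in control libraries (log2 fold change 4.90, adjusted p = 0.00304, not called without the block at 0.0668). Parp9 and its partner Dtx3l rose by 3.36 and 3.80. The 2 overlap in the annotation on opposite strands, were not called without the block (adjusted p = 0.107 and 0.0566), and Parp9 was not called without CD90pos IFNg A or control A (adjusted p = 0.0793 and 0.0544). Parp3, outside this list, had one of the smallest p, with 8605 and 6422 in IFNg and 1334 and 872 in control libraries (log2 fold change 2.78, SE 0.12, adjusted p = 0.000179).

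Apolipoprotein L genes and schlafen genes, 2 further interferon-responsive families, were called higher in 5 of 6 measured members each, with medians of 3.88 and 2.16. Apol6 was at 5048 and 5232 normalized reads in IFNg A and B, against 2.19 and 20.2 in control A and B (log2 fold change 9.29, SE 0.58, adjusted p = 0.000498). Apol10b was at 4705 and 8619 in IFNg A and B and 18.6 and 921 in control A and B, so its change was far larger in letter A (7.91) than in letter B (3.22). It was not called without CD90pos IFNg A (adjusted p = 0.0821) nor without the block (adjusted p = 0.155). Slfn5 was at 235 and 211 in IFNg and 7.66 and 8.98 in control libraries (log2 fold change 4.59, adjusted p = 0.00377), and Slfn8 rose by 3.10 (adjusted p = 0.00126, 0.0583 without the block). Apol6 and Slfn5 were the only members of either family called without the block, and without CD90pos IFNg A 2 apolipoprotein L and 3 schlafen genes were called. Without control A 3 apolipoprotein L genes were called.

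Components of the classical complement pathway rose, and 2 surface inhibitors of complement were called lower. C1s1, the protease of the C1 complex, was at 8637 and 8289 normalized reads in IFNg A and B, against 19.7 and 425 in control A and B. C1ra, its partner protease, was at 1407 and 1523 in IFNg and 1.09 and 103 in control libraries. C4b, the component they cleave, was at 1229 and 3693 in IFNg and 5.47 and 62.8 in control libraries. In all 3 genes control B held many more reads than control A, but fewer than either IFNg library. The log2 fold changes were 6.49, 6.63 and 6.71 (adjusted p = 0.00684, 0.0113 and 0.00126). Serping1, the inhibitor of C1, was at 56.3 and 749 in IFNg and 2.19 and 3.37 in control libraries, a ratio of 143 with a counting interval from 61.1 to 442; its call ended when any of the 4 CD90pos libraries was left out (adjusted p from 0.0623 to 0.188). Cd59a, which blocks the membrane attack complex, was at 329.8 and 380.1 in IFNg and 924 and 1301 in control libraries (log2 fold change -1.63, SE 0.19, adjusted p = 0.00319). Cr1l, also known as Crry, which blocks the C3 convertase in rodents, was at 1267 and 1331 in IFNg and 2214 and 2447 in control libraries (log2 fold change -0.84, adjusted p = 0.00609). Of 16 complement genes 6 were called higher and 2 lower (median 0.77), against 14.0% and 13.6% of all genes. Leaving out CD90pos IFNg A or B lowered the count. Without the block Cd59a alone was called; the 4 increases named here had adjusted p from 0.0616 to 0.121 and Cr1l 0.054. Without CD90pos IFNg A neither C1ra, C1s1 nor Cr1l was called (adjusted p from 0.0572 to 0.0839), and Cr1l not without IFNg B (adjusted p = 0.0704).

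Cell death genes changed in part. Besides Zbp1, which also starts necroptosis and is described above, the inflammatory caspase gene Casp4 was at 79.98 and 311 normalized reads in IFNg A and B and 2.19 and 46.0 in control A and B. Gsdmd, the pore former of pyroptosis, was at 317 and 476 in IFNg and 14.2 and 120.1 in control libraries. Casp12 was at 2761 and 2473 in IFNg and 332 and 559 in control libraries. These 3 genes were called higher by 3.70, 3.18 and 2.60 (adjusted p = 0.00576, 0.0168 and 0.00685). Of 29 cell death genes 10 were called higher and 3 lower (median 0.16), against 14.0% and 13.6% of all genes. Without the block 5 were called higher, and leaving out CD90pos IFNg A lowered the count. Casp4, Gsdmd and Casp12 were called neither without the block (adjusted p from 0.0641 to 0.276) nor without CD90pos IFNg A (adjusted p from 0.0564 to 0.111), nor Gsdmd without IFNg B (adjusted p = 0.0726). Of 16 lysosomal genes 1 was called higher (Ctsz, 0.73) and 1 lower (Ctsh, -0.77), against 14.0% and 13.6% of all genes. Both calls ended without the block (adjusted p = 0.180 and 0.497) and without any one of 5 libraries, CD90pos IFNg A, IFNg B, control A and both CD90neg IFNg libraries (adjusted p from 0.0574 to 0.299).

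**Figure D3:**
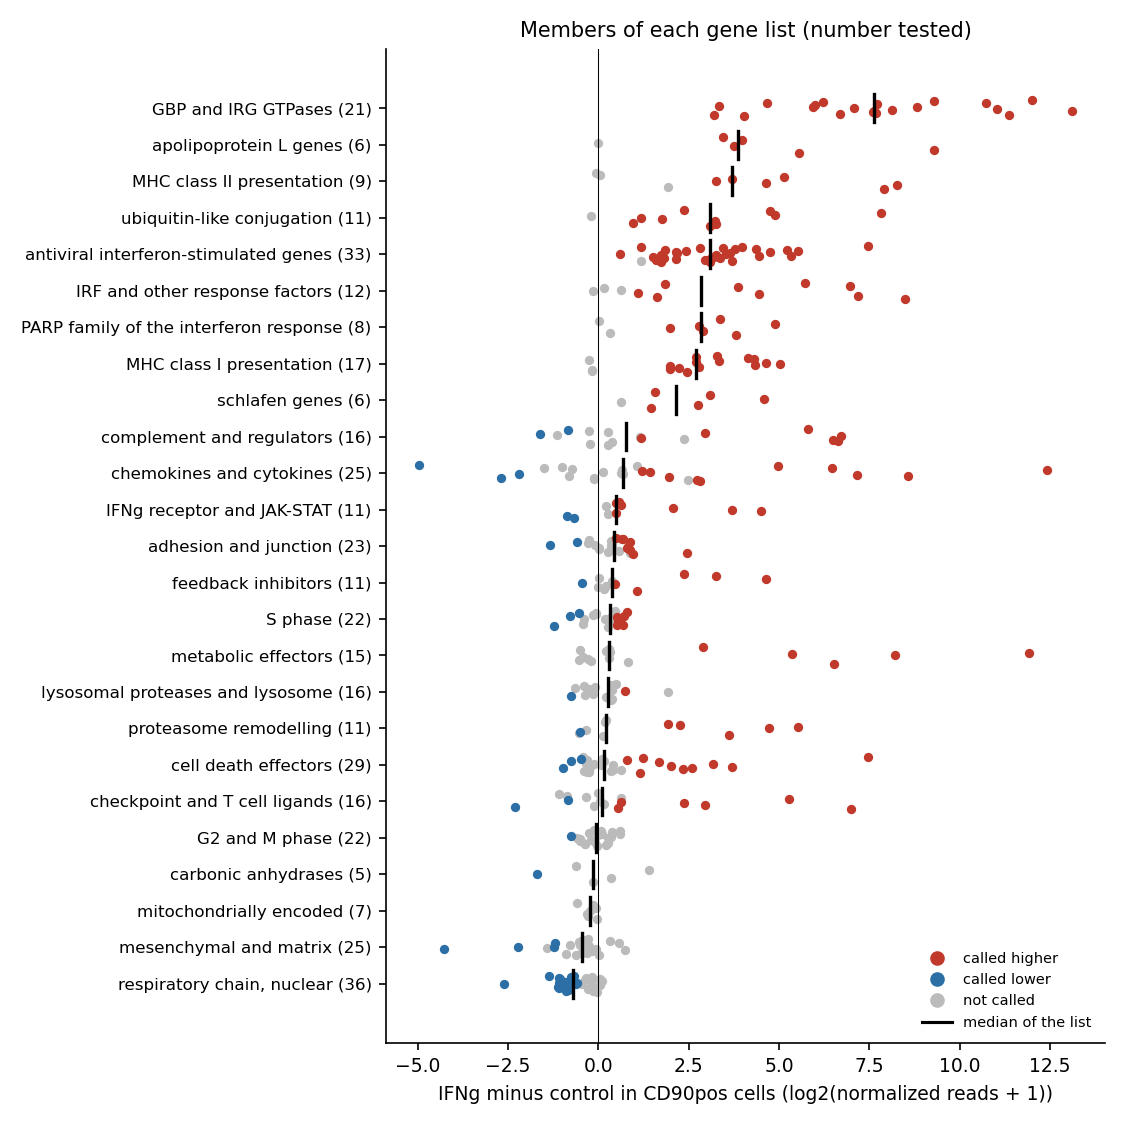
Log2 fold changes of IFNg over control in CD90pos cells for the members of 25 gene lists, with the number of members tested in brackets; points are genes, red called higher, blue called lower and grey not called, and black bars are list medians. GBP and IRG GTPases have the highest median (7.62) and the nuclear respiratory chain the lowest (-0.71).

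The share of reads showed how much of the transcriptome these groups took. Class I genes took 1.33% and 1.17% of normalized reads in CD90pos IFNg A and B, against 0.394% and 0.592% in control A and B. Chemokines and cytokines took 0.560% and 0.457% in IFNg A and B and 0.113% and 0.128% in control A and B. Nuclear genes of the respiratory chain moved the other way, with 0.547% and 0.529% in IFNg A and B and 0.746% and 0.811% in control A and B. Per kilobase of exon, Krt18, a keratin of luminal epithelium, ranked 1 of all genes in the mean of both the IFNg and the control libraries. B2m ranked 3 in IFNg libraries and 58 in control libraries, with mean levels of 104868 and 19743 normalized reads per kilobase. Gbp2 ranked 10 in IFNg and 3889 in control libraries (69419 and 446 normalized reads per kilobase), and Cxcl9 ranked 21 in IFNg and 12357 in control libraries. Ly6a, the surface antigen Sca-1, ranked 17 in IFNg and 487 in control libraries. Its values were 53649 and 33524 normalized reads in IFNg A and B and 3813 and 4598 in control A and B (log2 fold change 3.34, SE 0.21, adjusted p = 0.000498). Among called genes, the thymosin gene Tmsb4x and the calcium-binding protein gene S100a6 lost most reads per kilobase (34912 in IFNg against 74575 in control libraries, and 35145 against 70633), with log2 fold changes of -1.09 and -1.01. Both calls ended without CD90pos IFNg A (adjusted p = 0.0745 and 0.0931) or IFNg B (adjusted p = 0.206 and 0.0514), and that of Tmsb4x also without either control library (adjusted p = 0.105 and 0.067) or the block (adjusted p = 0.152).

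**Figure D4:**
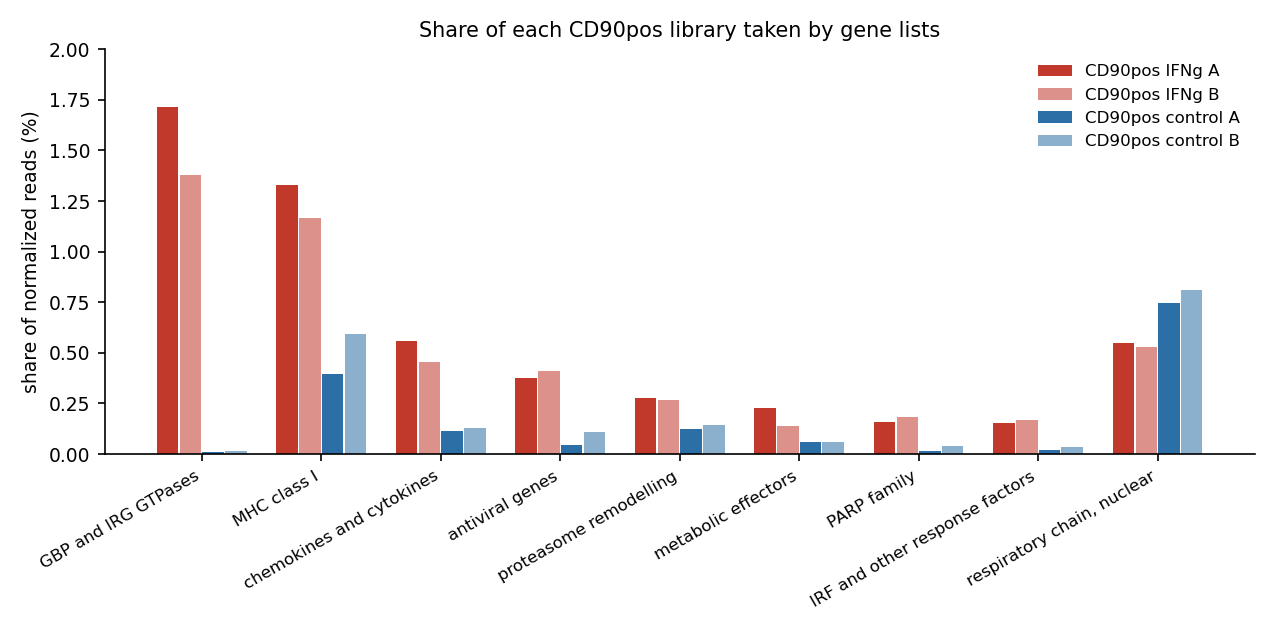
Share of the normalized reads of each CD90pos library, in percent, taken by 9 gene lists; red bars are IFNg and blue bars control libraries, dark for the letter A and pale for the letter B. The GBP and IRG bars reach 1.71% and 1.38% in IFNg libraries and are hardly visible in control libraries, and the respiratory chain is the list shown whose bars are lower with IFNg.

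Among the genes that fell were several with a level close to equal in both IFNg libraries. Ctla2a, an inhibitor of cysteine proteases, was at 53.3 and 52.1 normalized reads in IFNg A and B, against 668 and 369 in control A and B. Cav2, a caveolin of membrane pits, was at 3196 and 3147 in IFNg and 18391 and 9925 in control libraries. Car2, the carbonic anhydrase II gene, was at 799 and 834 in IFNg and 2615 and 2701 in control libraries. In each of these genes both IFNg libraries held nearly the same level, well under both control libraries. Their log2 fold changes were -3.21 (SE 0.35, adjusted p = 0.0027), -2.09 (SE 0.20, adjusted p = 0.00195) and -1.7 (SE 0.13, adjusted p = 0.000922). S100a4, a calcium-binding protein linked to cell motility, was at 91.8 and 117 in IFNg and 419 and 562 in control libraries (log2 fold change -2.21, adjusted p = 0.00373). Gulp1, an adaptor of engulfment, was at 114 and 115 in IFNg and 587 and 415 in control libraries (log2 fold change -2.10, adjusted p = 0.00258). Mmp10, a secreted matrix protease, and Tfpi2, an inhibitor of serine proteases, fell in parallel in 2 letters that started from different levels. Mmp10 was at 234 and 23.5 in IFNg A and B and 2581 and 257 in control A and B, and Tfpi2 was at 113 and 8.17 in IFNg A and B and 1787 and 99.9 in control A and B. Their log2 fold changes were -3.43 and -3.72 (adjusted p = 0.000432 and 0.00105), and without the block neither was called (adjusted p = 0.370 and 0.366). Aldh3a1, an aldehyde dehydrogenase, and Csdc2, a cold shock domain protein, fell by 2.44 and 1.92 on the log2 scale, and were not called without CD90pos IFNg A (adjusted p = 0.0671 and 0.0615).

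Nuclear genes of the mitochondrial respiratory chain and ATP synthase were the list with the most decreases. Of 36 measured, 21 were called lower and 0 higher, against 13.6% and 14.0% of all genes. The median was -0.71, with -0.61 in letter A and -0.80 in letter B. Without the block 12 were called lower, against 2.11% of all genes. Uqcrh, the hinge protein of complex III, was at 3956 and 3252 normalized reads in IFNg A and B, against 10602 and 8025 in control A and B. Ndufa4, a subunit linked to cytochrome c oxidase, was at 1281 and 2741 in IFNg and 14039 and 9231 in control libraries. Cox7c, a small subunit of cytochrome c oxidase, was at 2584 and 2093 in IFNg and 6417 and 4039 in control libraries. In each of these genes the IFNg values lay below both control values, as they did in 23.8% of all genes. The log2 fold changes were -1.36 (SE 0.10, adjusted p = 0.000835) for Uqcrh, -2.60 (SE 0.42, adjusted p = 0.00726) for Ndufa4 and -1.13 (SE 0.15, adjusted p = 0.00403) for Cox7c. Sdhd, which anchors succinate dehydrogenase in the membrane, was at 3422 and 3425 in IFNg and 6939.6 and 7652 in control libraries (log2 fold change -1.09, adjusted p = 0.00216). Ndufa4 and Cox7c were not called without CD90pos IFNg A (adjusted p = 0.0608 and 0.0507), and Cox7c not without the block (adjusted p = 0.0705). Tmem70, an assembly factor of ATP synthase outside the list, was at 1882 and 1979.9 in IFNg and 5412 and 5669 in control libraries (log2 fold change -1.52, SE 0.12, adjusted p = 0.000922), and Minos1, a subunit that shapes cristae, fell by 1.15 (adjusted p = 0.00177, 0.0724 without the block). The number of respiratory chain genes called was 11 without CD90pos IFNg A and 15 without CD90pos IFNg B. The 7 mitochondrially encoded genes in the table were not called in either direction (median -0.23), and the letters disagreed (median -0.90 in A and 0.49 in B).

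Transcript length moved with these decreases. Genes were split into 4 equal classes of union exon length. The median log2 fold change was -0.27 for genes of 57 to 2773 bases, -0.01 for 2774 to 4435, 0.08 for 4437 to 6845 and 0.16 for 6847 to 123179. The share of genes called lower was 23.2%, 14.4%, 10.3% and 6.58% in the same order, and the share called higher was 7.23%, 13.2%, 16.1% and 19.5%. Across 12947 genes, which are not independent replicates, Spearman's rho of log2 fold change with length was 0.252 in CD90pos cells (0.148 in letter A and 0.316 in letter B) and 0.020 in CD90neg cells. In CD90neg cells the medians of the classes lay between -0.04 and 0.00. Of the 36 respiratory chain genes 25 lie in the shortest class, where 17 were called lower with a median of -0.76, against -0.26 and 22.8% called lower for the other 3212 genes of that class. The part of transcript length in the decreases was not tested.

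**Figure D5:**
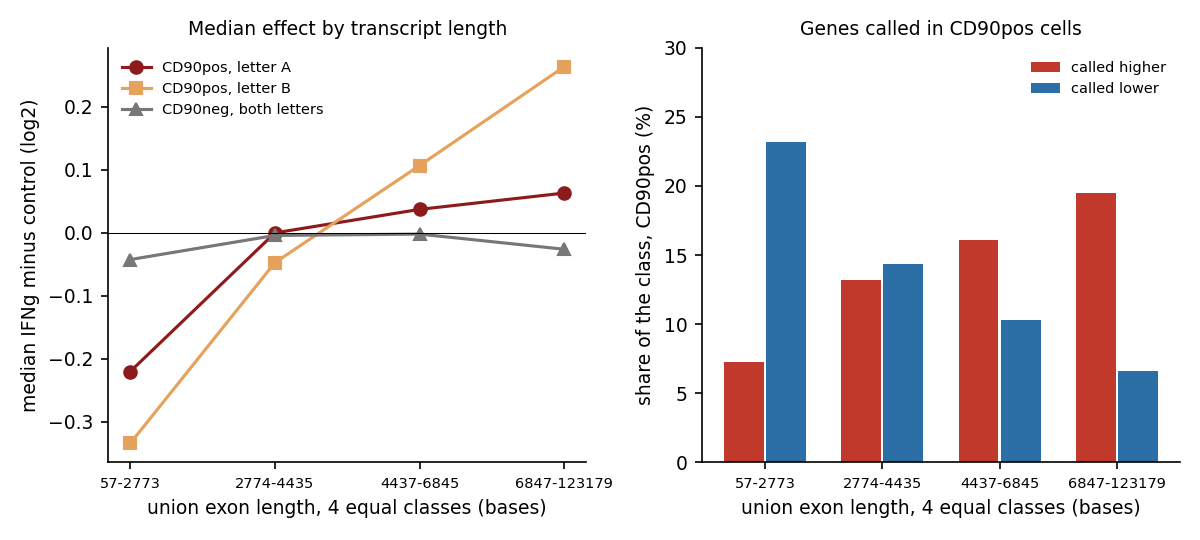
The left panel plots the median log2 fold change of IFNg over control by class of union exon length, for CD90pos letter A, CD90pos letter B and CD90neg cells; the right panel plots the share of each class called higher (red) or lower (blue) in CD90pos cells. In CD90pos cells short genes lie below 0 and long genes above it in both letters, whereas the CD90neg medians stay near 0.

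Epithelial junction and matrix genes changed in part. Of 23 adhesion and junction genes 9 were called higher and 2 lower (median 0.42), against 14.0% and 13.6% of all genes. Cldn1 had the largest called increase, with 5157 and 13810 normalized reads in IFNg A and B and 698 and 3387 in control A and B (log2 fold change 2.45). The 2 called lower were the integrin genes Itga2 and Itgb1 (log2 fold changes -1.34 and -0.59). None of these genes was called without the block (limma adjusted p = 0.392, 0.434 and 0.545). Leaving out CD90pos IFNg A, IFNg B or control A lowered the count, and without the block 1 gene was called. That gene was Itgb4, the hemidesmosome integrin, at 22189 and 24034 normalized reads in IFNg A and B and 13346 and 11899 in control A and B (log2 fold change 0.87, SE 0.13, adjusted p = 0.00532), although it was not called without CD90pos IFNg B (adjusted p = 0.0612). Cdh1, the gene of E-cadherin, was at 37136 and 56805 in IFNg and 17372 and 32213 in control libraries (log2 fold change 0.96, adjusted p = 0.00581, 0.329 without the block and 0.0738 without CD90pos IFNg A). Of 25 mesenchymal and matrix genes 4 were called lower and 0 higher (median -0.46), where 13.6% of all genes were called lower, and 1 and 2 were called without CD90pos IFNg A and B. Among them were S100a4, given above, Mmp3 and Timp1. Mmp3, a matrix protease, was at 37.5 and 115 in IFNg A and B and 2586 and 641 in control A and B (log2 fold change -4.27, adjusted p = 0.0276). Timp1, an inhibitor of such proteases, was at 2559 and 969.5 in IFNg and 4436 and 2954 in control libraries. S100a4 alone was called without the block (adjusted p = 0.0915 for Mmp3 and 0.423 for Timp1). Without CD90pos IFNg A neither was called (adjusted p = 0.167 and 0.0745), Timp1 was not called without IFNg B (adjusted p = 0.0966), and Mmp3 not without control A (adjusted p = 0.135). The fibroblast marker sum given above was lower in IFNg libraries of both letters. In letter B most of it was Postn (4172 normalized reads in IFNg and 11887 in control). Postn alone of the 7 markers was called (log2 fold change -2.03), and not without the block. The part of fibroblasts in these values was not tested. Of 22 S phase genes 6 were called higher and 3 lower (median 0.32), against 14.0% and 13.6% of all genes, and of 22 genes of G2 and M phase 0 higher and 1 lower (Hmmr, -0.76), with 0 of either list called without the block, without CD90pos IFNg A or without CD90pos IFNg B, and the S phase count was 6 without control A.

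Most of the strongest increases of CD90pos cells were shared by CD90neg cells. Of the 77 genes called higher by 5 or more in CD90pos cells, 72 were also called higher in CD90neg cells, where 451 genes (3.48%) were called higher and 86 (0.663%) lower. The GBP and IRG median was 7.62 in CD90pos cells and 7.01 in CD90neg cells. Of all 1815 genes called higher in CD90pos cells 425 were also called higher in CD90neg cells and 1563 had a positive estimate there, with medians of 0.77 in CD90pos and 0.30 in CD90neg cells. Of the 1763 called lower 75 were also called lower in CD90neg cells and 1570 had a negative estimate, with medians of -0.81 in CD90pos and -0.21 in CD90neg cells. Since these genes were chosen for their call in CD90pos cells, smaller medians in CD90neg cells show no difference. The respiratory chain median was -0.71 in CD90pos and -0.12 in CD90neg cells. The difference between the responses was tested for each gene. In limma 0 genes were called (lowest adjusted p = 0.179), with 2154 at an unadjusted p under 0.05, and edgeR on recovered reads also called 0 (2133 at an unadjusted p under 0.05). DESeq2 on recovered reads called 583 genes, 194 with a higher and 389 with a lower estimate in CD90pos cells. Nos2 rose by 11.91 in CD90pos and 8.59 in CD90neg cells, a difference of 3.32 (adjusted p = 0.204), and Cd74 rose by 7.92 and 6.5 (adjusted p of the difference = 0.552).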

How the data were processed

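Per the labels, RNA came from a small-input kit and libraries from a stranded mRNA kit. The submitters' processing notes name STAR, HTSeq, mm10 and GRCm38; the filter behind the table is unstated. The authors deposited 1 table of normalized reads per gene, a non-negative signal in which every value (100%) is a whole number of reads times 1 factor per library, within 0.001. Counting intervals and floors cover counting error only, since no molecular identifiers mark single molecules.

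Genes at 10 or more in at least 2 libraries were tested with limma 3.58.1 (R 4.3.3) on log2(value + 1), with 1 mean per group, all 8 libraries, a variance trend and the letter as a block. Tests were two-sided, with Benjamini-Hochberg adjustment over 12962 genes. The letters were taken as pairs because the comparison is defined by letter. In the same data A minus B correlated between groups at 0.779 to 0.920. edgeR 4.0.16 and DESeq2 1.42.0 were run on recovered reads as alternatives, with other pseudocounts, filters and scalings, and each library left out. The method was tested on simulated data with 1 letter effect per gene, the same in every group. Letters that respond differently to IFNg were not simulated. Named genes are the 10 largest changes each way called with and without the block, the 8 smallest p each way (both sets at a mean of 100 or more), the 8 that gained or lost most reads per kilobase, core pathway genes, and up to 4 per list and direction. A few named genes are not reported here, though the counts and medians of their lists include them. Members and lists were chosen with earlier results of these data known. Lengths are union exons of GENCODE vM21, matched for 12949 genes. Of 175 named or strongly raised genes 29 share exon bases with another listed gene, and no source used here says whether counting used strand. Among them are Tap1, Psmb9, Batf2, Ciita, Nlrc5, Jak1, Stat3, Psme1, Apol6 and Parp3, on the opposite strand.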

Additional observations from a re-analysis of the deposited data

How the results depend on the processing

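Without the replicate block 546 genes were called for the IFNg effect in CD90pos cells, 273 higher and 273 lower, against 3578 (1815 and 1763) with it. With 1 library left out the count ranged from 460 to 4035, the genes higher from 316 to 2275 and the genes lower from 144 to 1760. Leaving an arm with 1 library assumes that it varies like the other groups. The difference between CD90pos and CD90neg effects stayed at 0 genes in limma and edgeR, and DESeq2 gave 583; the cause was not tested. On the recovered reads edgeR called 3594 genes for the IFNg effect in CD90pos cells and DESeq2 4263, and these and all other alternatives kept that count within 1.5 times. No named gene reversed; of 149 named genes, 82 were no longer called without the block, 68 without CD90pos IFNg A and 37 without CD90pos IFNg B, and at most 19 under any other alternative. Another scaling moved the median of all genes by less than 0.1 on the log2 scale.

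The spread was estimated from 2 libraries per group, with 3 residual degrees of freedom. Genes with few control reads limit the precision of the largest folds. The letters also carry differences in the basal, luminal, fibroblast and myeloid marker sums that the labels do not explain.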

Other observations

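Of the 77 genes called higher by 5 or more on the log2 scale in CD90pos cells, 47 belonged to a list and 30 did not, and 3 of those 30 are the GTPase genes given in the report. The following were chosen after their values were seen. Sectm1b was at 2902 and 1972 normalized reads in CD90pos IFNg A and B, against 2.19 and 4.49 in CD90pos control A and B (log2 fold change 9.16, limma adjusted p = 0.000256). Il18bp, which encodes a secreted decoy that binds the cytokine IL-18, was at 1692 and 1660.2 in IFNg and 65.7 and 26.9 in control libraries (log2 fold change 5.28, adjusted p = 0.000677). It shares exon bases with Numa1 on the opposite strand. Il12rb1, a chain of the receptor for IL-12, was at 841 and 770.3 in IFNg and 0 and 4.49 in control libraries (log2 fold change 8.43, adjusted p = 0.000922). Mpeg1, a pore-forming protein best known from macrophages, was at 3613 and 2589.9 in IFNg and 93.0 and 11.2 in control libraries. Its log2 fold change was 6.5 (limma adjusted p = 0.00232). The sum of 6 myeloid markers was lower in IFNg libraries, but Cd68 and Tyrobp were not called, as given in the report. The part of such cells in the Mpeg1 values was not tested. Tubb3, a tubulin known from neurons, was at 16354 and 11021 in IFNg and 41.6 and 240.2 in control libraries (log2 fold change 7.05, adjusted p = 0.0019), and Pigr, the epithelial carrier of secreted antibodies, was at 160.0 and 1095 in IFNg and 2.19 and 11.2 in control libraries (log2 fold change 6.07, adjusted p = 0.00222, 0.145 without the letter block). The branched-chain aminotransferase gene Bcat1 was at 2795 and 2306 in IFNg and 36.1 and 135 in control libraries (log2 fold change 5.16, adjusted p = 0.00499). An olfactory receptor gene, Olfr56, was at 1020.0 and 1660.2 in IFNg and 2.19 and 20.2 in control libraries, and shares exon bases with the IRG gene Ifi47 on the same strand, so these reads may belong to either. Each of the genes named here also had a positive log2 fold change in CD90neg cells, between 5.16 and 8.17.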
